A study of Mus musculus with 3 samples.

Results

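Chemokine-high Müller glia without Igfbp2 were cells whose profile was rich in RNA of the chemokine gene Ccl2 and poor in that of Igfbp2. Igfbp2, a gene of the insulin-like growth factor axis, marks another class of cells in the same retinas. Cells were chosen by 3 limits on their unique molecular identifiers (UMIs), which count RNA molecules, scaled to 10000 per cell. Ccl2 had to reach 10, Igfbp2 had to stay under 2 and the microglial complement genes C1qa, C1qb and C1qc together had to stay under 2. These limits kept 564 of the 24672 cells that passed quality limits, of 24695 in the deposited table. Run 1 gave 5 of them, run 2 gave 511 and run 3 gave 48, so 90.6% came from run 2. The words "without Igfbp2" mean under the limit of 2: of these cells 5, 332 and 44 in runs 1, 2 and 3 had 0 Igfbp2 UMIs.

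Every cell came from the retina of an adult mouse that carried 3 alleles, written Glast-CreERT+/tg, Yap5SA+/tg and, for the reporter, ROSA26R-tdTomato+/tg. In such mice tamoxifen lets Cre act in cells that use the Glast promoter, where it switches on Yap5SA, a form of the Hippo pathway effector YAP that the Hippo kinases cannot restrain, together with the red reporter tdTomato. All retinas had received NMDA, a glutamate receptor agonist toxic to inner retinal neurons, and tdTomato+ cells were sorted 2 days later for 10X Chromium 3' sequencing. The 3 runs belong to 1 group. There was no retina without Yap5SA, no uninjured retina and no statement that the runs were separate animals. The p-values therefore cover these libraries only, and not a spread between animals. The cells set beside the chemokine-high cells were the chemokine-low cells of the same runs, with Ccl2 under 1 and the same limits on Igfbp2 and C1q, which numbered 5084, 4776 and 5485 in runs 1, 2 and 3. Another 93, 812 and 354 cells lay between the Ccl2 limits.

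Müller glia are the radial glia of the retina, and on injury they can release chemokines, small secreted proteins that draw immune cells along a gradient. CCL2 and CCL7 attract monocytes through the receptor CCR2, CCL5 attracts T cells and monocytes, and CXCL10 attracts activated T cells through CXCR3. In many cell types their genes are switched on by NF-κB, downstream of tumour necrosis factor, interleukin-1 and Toll-like receptors, and by interferons acting through interferon regulatory factors. Interferons also raise the guanylate-binding proteins (GBPs), immunity-related GTPases and MHC class I genes, and NF-κB raises its own inhibitor Nfkbia.

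Of the 6 genes given as markers of these cells, Ccl2 lies on chromosome 11 at 82035571 to 82037453 (mm10, GENCODE M21), with Ccl7 next to it at 82045712 to 82047525 and Ccl5 on the same chromosome at 83525778 to 83530518. Cxcl10 lies on chromosome 5, Gbp2 on chromosome 3 and Fas on chromosome 19. The 250 bases before the start site of 4 genes are shown because Cxcl10 and Gbp2 are markers and Cxcl2 and Nfkbia were among the tested genes that rose. They are RefSeq sequences of build GRCm38.p6, on the strand of each gene at chr5:92348890-92349139 (minus strand), chr3:142620413-142620662 (plus strand), chr5:90903649-90903898 (plus strand) and chr12:55492648-55492897 (minus strand). Capitals mark letters that match the κB pattern GGGNNNNNCC or the interferon-stimulated response element (ISRE) pattern GAAANNGAAA on either strand.
Cxcl10: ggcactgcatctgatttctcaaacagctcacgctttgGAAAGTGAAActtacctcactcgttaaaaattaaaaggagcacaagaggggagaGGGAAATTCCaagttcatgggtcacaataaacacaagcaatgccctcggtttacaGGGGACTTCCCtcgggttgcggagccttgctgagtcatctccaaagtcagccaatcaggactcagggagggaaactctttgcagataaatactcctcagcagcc
Gbp2: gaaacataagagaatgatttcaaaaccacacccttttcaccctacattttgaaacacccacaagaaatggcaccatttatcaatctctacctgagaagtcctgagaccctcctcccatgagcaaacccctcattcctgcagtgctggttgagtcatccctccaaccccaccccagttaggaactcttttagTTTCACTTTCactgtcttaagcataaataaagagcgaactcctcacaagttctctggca
Cxcl2: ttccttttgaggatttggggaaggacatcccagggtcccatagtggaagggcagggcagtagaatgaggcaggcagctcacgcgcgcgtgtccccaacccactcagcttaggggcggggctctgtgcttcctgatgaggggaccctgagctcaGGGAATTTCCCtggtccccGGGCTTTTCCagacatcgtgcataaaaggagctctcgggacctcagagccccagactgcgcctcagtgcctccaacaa
Nfkbia: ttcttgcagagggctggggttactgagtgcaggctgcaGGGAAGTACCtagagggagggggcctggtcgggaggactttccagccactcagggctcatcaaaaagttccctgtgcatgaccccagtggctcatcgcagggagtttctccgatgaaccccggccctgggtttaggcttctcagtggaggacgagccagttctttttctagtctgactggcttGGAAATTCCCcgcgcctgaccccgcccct
The Cxcl10 window held 3 κB matches, a pair of them overlapping, and 1 ISRE match. The Gbp2 window held 1 ISRE match and 0 κB matches, Cxcl2 held 3 κB matches (a pair overlapping) and Nfkbia held 2. The κB pattern is loose and occurred in 45.8% of the 32851 windows of this length in the table, so its presence sets these genes little apart, while the ISRE pattern occurred in 2.98%. The AP-1 pattern TGANTCA occurred in 6.75%. Of the 4, Cxcl10 and Gbp2 each held an AP-1 match. Of the other markers, Fas had a window with 2 κB matches and 1 AP-1 match.

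The share of chemokine-high cells differed widely between the runs. Among cells without Igfbp2 it was 0.0965% in run 1 (exact Clopper-Pearson 95% interval 0.0313 to 0.225%, 5 of 5182 cells), 8.38% in run 2 (7.70 to 9.10%, 511 of 6099) and 0.815% in run 3 (0.602 to 1.08%, 48 of 5887). Over all cells the share averaged 2.15% ± 3.18 (SD, n = 3 runs). Intervals cover counting error only, and the runs carry no label that separates them. Among cells with Igfbp2 the share was 1.19% in run 1, 13.2% in run 2 and 4.24% in run 3, so the share without Igfbp2 was the lower one in 3 of 3 runs. The mean difference was -3.12 percentage points. It is a description, since the limits on Ccl2 and Igfbp2 set both shares. A two-sided permutation test of 3 paired runs cannot give a p under 0.25, so it could not decide the question. Chemokine-high cells without Igfbp2 were shallower, with a median of 8518, 13459 and 7508 UMIs in runs 1, 2 and 3, against 19182, 23439.5 and 16157.5 UMIs in chemokine-high cells with Igfbp2. After every cell was thinned to 3500 UMIs the shares were 0.146%, 8.37% and 0.978% without Igfbp2 and 1.26%, 12.9% and 4.44% with it, in the same order.

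**Figure D1:**
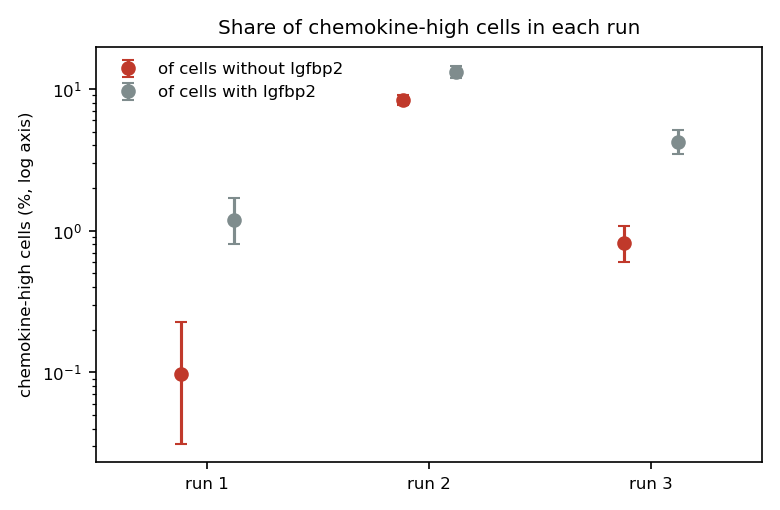
Share of chemokine-high cells (percent, log axis) in each run among cells without Igfbp2 (red) and with Igfbp2 (grey), with exact 95% binomial intervals. In every run the red point lies below the grey one, and run 2 holds the highest value of both classes, 8.38% and 13.2%.

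The chemokine-high cells carried Müller glia transcripts. The summed level of Glul, Rlbp1, Slc1a3, Dkk3 and Aqp4 reached 10 per 10000 UMIs in 5 of 5, 506 of 511 and 48 of 48 cells. All 13 listed Müller markers had UMIs in each run, at a summed level of 28431, 18537 and 17228 CPM (UMIs per 1000000 UMIs of the summed cells), against 30714, 26206 and 24842 CPM in chemokine-low cells. Defining genes of microglia were at or near 0: Cx3cr1 was at 0 in all 3 runs and Csf1r at 0, 0.289 and 0 CPM. The 16 microglia and macrophage markers summed to 72.5, 111 and 35.4 CPM, with 1, 13 and 3 of them detected, against 52.1, 43.6 and 33.2 CPM in chemokine-low cells. Lyz2, lysozyme of myeloid cells, made up 53.9 CPM of the run 2 sum, against 0.853 CPM in chemokine-low cells of run 2, and the part this plays in the other results was not tested. The astrocyte gene Pax2 and the endothelial gene Cdh5 were at 0 in the chemokine-high cells of all 3 runs. The 8 astrocyte markers summed to 1547, 618 and 605 CPM, mostly Aldoc, and the 8 endothelial markers to 725, 416 and 616 CPM, nearly all from Flt1 and Kdr, with sums of 922 to 1269 and 716 to 754 CPM in chemokine-low cells. The 11 rod markers summed to 604, 1118 and 1473 CPM, against 1621, 1401 and 1433 CPM in chemokine-low cells. Doublets were not removed.

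The chemokine-high cells were deeper than the chemokine-low cells in run 2 (median 13459 against 10094 UMIs) and shallower in run 3 (7508 against 8519 UMIs). The pairs of runs shared 83 to 108 cell barcodes, and for 0 of those barcodes were both cells chemokine-high without Igfbp2. The table of normalised values that the authors deposited kept 90.6% of the chemokine-high cells, 4 of 5, 485 of 511 and 22 of 48 by run, against 44.7% of the chemokine-low cells.

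The levels that chose the cells and their markers are a description, with no test. In the summed profiles Ccl2 stood at 4795 CPM in run 2 and 2543 CPM in run 3, against 9.78 and 1.94 CPM in chemokine-low cells. Over single cells the Ccl2 level ran between 10.0 and 172 per 10000 with a median of 37.7 in run 2, and between 10.4 and 106 with a median of 17.0 in run 3. The 5 cells of run 1 had 12.1, 16.4, 35.8, 28.2 and 17.2 per 10000. Run 2 therefore held most of the cells and also the higher Ccl2 levels.

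Ccl7 had 1834 CPM in run 2 and 541 CPM in run 3, against 12.6 and 5.18 CPM in chemokine-low cells. Cxcl10 had 2196 and 687 CPM, against 36.1 and 20.7 CPM. Ccl5 had 388 and 250 CPM, against 15.2 and 4.01 CPM. For Ccl5 the summed level hides very uneven cells: 11% of the run 2 cells reached 5 per 10000 and the highest reached 218, while in run 3 a single cell at 92.0 accounted for the 2.08% that did. Gbp2, an interferon-induced GTPase, had 1964 and 479 CPM, against 85.7 and 58.5 CPM, and Fas, the death receptor, had 406 and 144 CPM, against 27.3 and 20.8 CPM. In each of the 6 genes, Ccl2 included, run 2 exceeded run 3. That chemokine-high cells lay above chemokine-low cells was fixed for Ccl2 by the limits, and the other 5 were given as markers. The 5 cells of run 1 had 169, 72.5 and 145 CPM of Ccl7, Cxcl10 and Gbp2, resting on 7, 3 and 6 UMIs, and 0 UMIs of Ccl5 and Fas in 41363 UMIs.

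**Figure D2:**
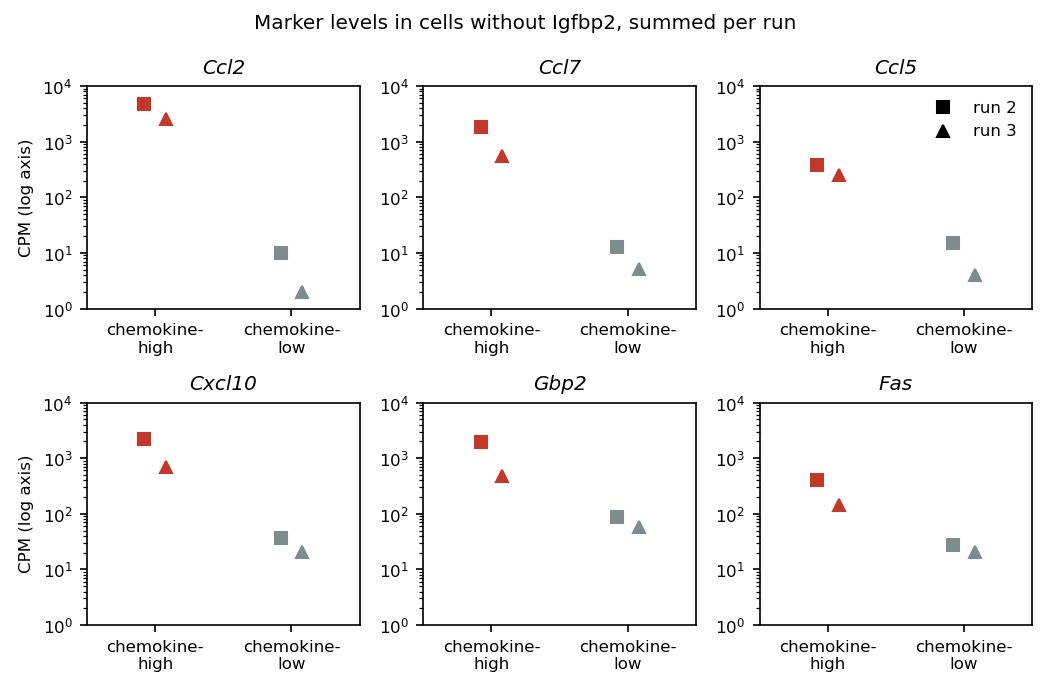
Levels (CPM, log axis) of Ccl2 and its 5 companion markers in summed profiles of chemokine-high cells (red, left) and chemokine-low cells (grey, right) of run 2 (squares) and run 3 (triangles), all without Igfbp2. Red points lie above grey points in all 6 panels, which the limits fixed for Ccl2, at 4795 and 2543 CPM against 9.78 and 1.94 CPM.

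The markers were combined in different ways in the runs. Counting how many of Ccl7, Ccl5, Cxcl10, Gbp2 and Fas reached 5 per 10000, 54.4% of the run 2 cells carried at least 3 and 11% carried none. In run 3, 6.25% carried at least 3 and 62.5% carried none. Thinned to 3500 UMIs, the shares with at least 3 were 54.6% and 8.33%. Among chemokine-low cells 0.0838% and 0% carried at least 3 in runs 2 and 3. Among chemokine-high cells with Igfbp2 26.8% and 2.04% did, so that class also had the lower share in run 3. Many run 3 cells thus had Ccl2 past the limit with little of its companions.

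Across the 511 run 2 cells, which share a library, Ccl2 ranked most closely with Ccl7 (Spearman rho 0.70), its neighbour on the chromosome, then with Gbp2 (0.48), Cxcl10 (0.46), Fas (0.35) and Ccl5 (0.29). Cxcl10 and Gbp2 ranked together at 0.57. Across the 48 run 3 cells the values with Ccl2 were 0.44 for Ccl7, 0.19 for Gbp2, 0.26 for Cxcl10, 0.32 for Fas and 0.08 for Ccl5. The total UMIs of a cell ranked with Ccl2 at 0.10 in run 2 and 0.23 in run 3. Across all 6099 run 2 cells without Igfbp2, the 10 genes ranked most like Ccl2 were Ccl7, Iigp1, Gbp5, Ifi204, Ifi47, Ifi203, Zbp1, Irf1, Irgm1 and Tnfaip2, with rho between 0.40 and 0.46. Over 5887 cells of run 3, which hold far fewer chemokine-high cells, rho for the same 10 genes lay between 0.04 and 0.21.

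There was no gap at the Ccl2 limit. In run 2, 54 cells lay just outside it (8 to 10 per 10000) and 39 just inside it (10 to 12). The cells just inside had 317 CPM Ccl7, 551 CPM Cxcl10 and 914 CPM Gbp2, and the cells just outside had 421, 821 and 913 CPM. Over the whole range of Ccl2 in run 2, Cxcl10 stood at 36.1, 54.7, 277, 646, 791, 1925, 3233 and 3727 CPM over the 8 steps of Ccl2 level between under 1 and at least 100 per 10000. Nfkbia, the NF-κB inhibitor, stood at 184, 332, 615, 833, 904, 1281, 1374 and 1565 CPM over the same steps. Rlbp1, the retinaldehyde-binding protein of the visual cycle, stood at 1635, 1386, 959, 887, 749, 729, 665 and 668 CPM. In run 3 the 5 steps up to 20 per 10000 gave Nfkbia at 205, 424, 663, 875 and 1129 CPM and Rlbp1 at 1572, 1377, 1059, 970 and 865 CPM. These steps were made from Ccl2 and carry no test.

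**Figure D3:**
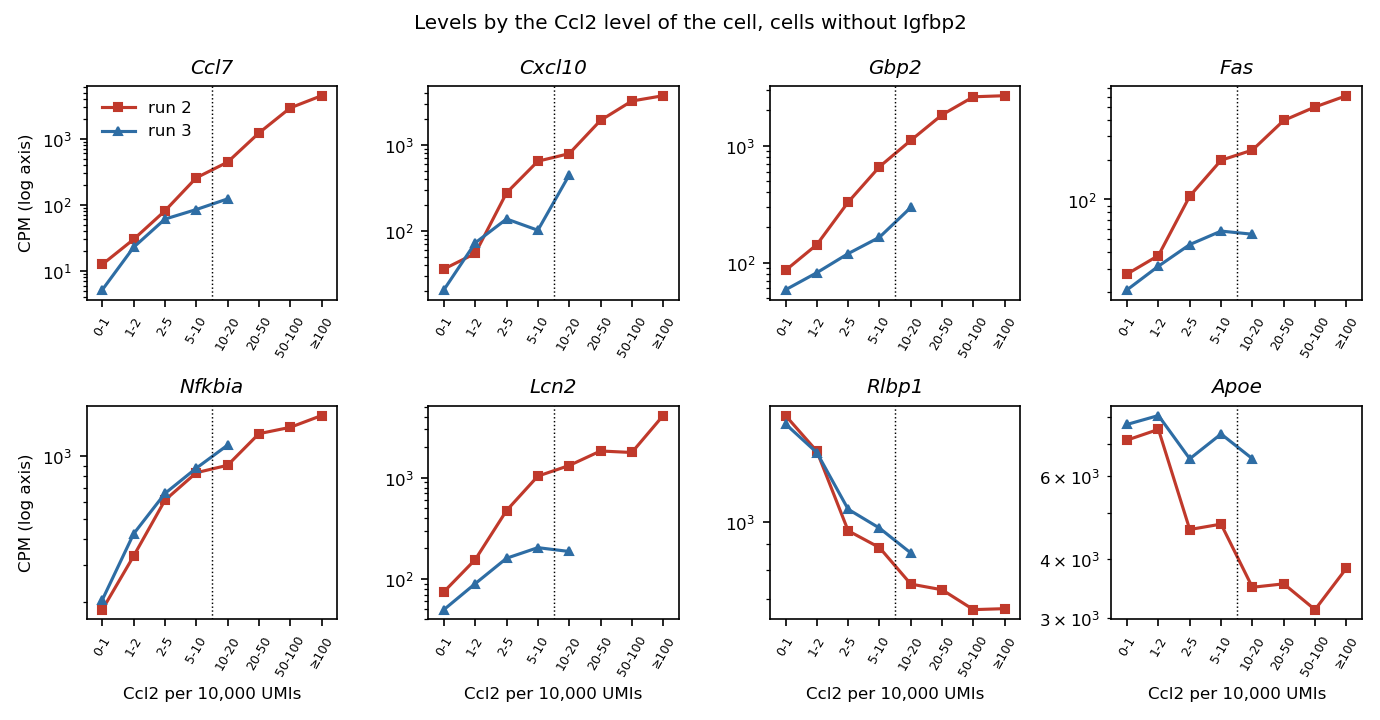
Levels (CPM, log axes that differ between panels) of 8 genes in cells without Igfbp2, summed over cells in steps of their Ccl2 level, in run 2 (squares) and run 3 (triangles; steps with under 20 cells left out). The dotted line marks the limit of 10; Nfkbia climbs to 1565 CPM in the top step of run 2, while Rlbp1 stands at 668 CPM there, against 1635 CPM in the lowest step.

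Genes outside the rule and the markers were tested on UMIs summed per class and run, with edgeR's quasi-likelihood test, the run as a block and Benjamini-Hochberg adjustment over 13704 genes. Only runs 2 and 3 had at least 20 chemokine-high cells, so the test rests on 2 run pairs with 1 residual degree of freedom, and edgeR took the spread wholly from a trend shared by all genes. The adjusted p-values are therefore small, and the value in each pair is given beside them. At an adjusted p under 0.05, 784 genes (5.72%) were higher and 437 (3.19%) lower in chemokine-high cells, 1221 (8.91%) in all, of which 1111 moved the same way in both pairs. DESeq2 called 289 higher and 50 lower, and edgeR without the run as a block 291 and 85. All 339 genes called by DESeq2 were among the 1221. The median change over all tested genes was -0.04 on the log2 scale.

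Of the 12 largest rises, Gbp4, Gbp5, Iigp1, Rsad2 and Ifit2 were on the lists of interferon-induced genes. Gbp4, a GBP, had 188 and 28.3 CPM in chemokine-high cells of runs 2 and 3, against 1.77 and 1.80 CPM in chemokine-low cells, a log2 change of 5.88 (SE 0.36, adjusted p = 1.51e-57). Iigp1, an immunity-related GTPase, had 347 and 80.3 CPM, against 4.88 and 4.53 CPM, a change of 5.41 (SE 0.29). In chemokine-high cells both genes were higher in run 2 than in run 3. Next were Ifi47, Gbp5, Cxcl2, Lcn2, Rsad2, Rnd1, Ifit2, Zbp1, Slc7a11 and Tm4sf1, with log2 changes between 3.04 and 5.14. Slc7a11, the cystine transporter, was as high in run 3 as in run 2 (98.5 and 109 CPM, against 9.81 and 17.1 CPM), whereas Tm4sf1, a membrane protein, had 189 and 9.45 CPM, against 16.4 and 5.32 CPM.

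Chemokine genes beyond the markers gave 6 rises among 14 tested. Cxcl2, a neutrophil chemoattractant, had 240 and 203 CPM, against 10.9 and 10.2 CPM, a log2 change of 4.48 (SE 0.26, adjusted p = 1.08e-62). Cxcl1, which acts on the same receptor, had 172 and 265 CPM, against 45.3 and 50.1 CPM, a change of 2.23 (SE 0.23, adjusted p = 1.36e-19). Cxcl1 was higher in run 3 than in run 2 and Cxcl2 only a little lower, unlike Cxcl10 and Ccl7. Cxcl16 rose by 1.26 and Cxcl12 by 0.94. Ccl12 and Cxcl5 were also called on few UMIs (4.48 and 12.6 CPM in run 2, against 0.714 and 2.18 CPM), and Ccl12 had 0 UMIs in both classes of run 3. DESeq2 called 3 of the 14 higher.

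Among cytokines and growth factors of inflammation 8 of 17 rose. Lcn2, the iron-binding acute-phase protein lipocalin-2, had 1895 and 375 CPM, against 74.6 and 49.7 CPM, a change of 3.92 (SE 0.19, adjusted p = 2.05e-85). As for Ccl5, this summed level hides uneven cells: the median Lcn2 level of single chemokine-high cells was 0 in runs 2 and 3. The per-cell level of 5 used for Ccl5 was reached by 32.5% and 18.8% of them, against 1.74% and 1.4% of chemokine-low cells. Lif, a gp130 cytokine that Müller glia release on injury, had 62.7 and 94.5 CPM, against 9.02 and 17.6 CPM, a change of 2.73 (adjusted p = 5.44e-20). Clcf1, another gp130 ligand, rose by 1.55 and Csf1, the growth factor of microglia, by 1.56. Il6, counted in the 8, rose by 5.23 on few UMIs (5.199 and 11.81 CPM, against 0.139 and 0.344 CPM). It passed the low-count filter only through the chemokine-high profiles, so its rise was favoured by the filter and is a description. Of 22 cytokine and death receptors 9 rose, led by Tlr2, a sensor of bacterial lipoproteins, with 97.6 and 28.3 CPM, against 2.56 and 1.98 CPM, a change of 4.90. Tnfrsf12a, the TWEAK receptor, rose by 1.30. Cd40 and Il1r1 were called on run 2 alone: their run 3 pairs gave -1.59 and -0.02.

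Of 22 tested NF-κB subunits, inhibitors and feedback genes 15 rose and 0 fell, with a median change of 1.49. DESeq2 called 11 higher, and edgeR without the run as a block 13. Nfkbia had 1239 and 1190 CPM, against 184 and 205 CPM, a change of 2.72 (SE 0.17, adjusted p = 2.59e-52), nearly the same height in runs 2 and 3. The 5 cells of run 1, outside the test, had 48.4 CPM of Nfkbia, resting on 2 UMIs. The exact Poisson 95% interval of 5.86 to 175 CPM holds the 82.4 CPM of the chemokine-low cells of run 1. Relb, a subunit of the noncanonical branch, rose by 1.78, Nfkbib by 1.32 and Nfkbiz by 0.70. Named after their values were seen, Tnfaip3, which ends NF-κB signalling, had 67.0 and 102 CPM, against 9.38 and 15.1 CPM, and Birc3, a survival factor downstream of the tumour necrosis factor receptor, had 21.1 and 18.9 CPM, against 1.17 and 1.497 CPM. All 16 tested NF-κB targets outside the chemokines rose (median 2.25; DESeq2 called 14 and edgeR without the run as a block 9), among them Icam1 (2.97), an adhesion molecule for leukocytes, and Irf1 (2.34), a factor that also responds to interferon-γ. Irf1 had 373 and 198 CPM, against 45.3 and 79.0 CPM. Plaur, of the same list, was called with a run 3 pair of -0.05.

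Of 27 type I interferon response genes 26 rose, all but Irf9, with a median of 2.01. DESeq2 called 24, and edgeR without the run as a block 12. Isg15, a ubiquitin-like modifier, had 1722 and 597 CPM, against 205 and 150 CPM, a change of 2.63 (SE 0.18, adjusted p = 1.49e-46). Ifit1, which binds foreign RNA, had 1131 and 588 CPM, against 153 and 132 CPM. Ifit2 was higher in run 3 (78.4 and 135 CPM, against 10.3 and 9.10 CPM). Ifi27l2a was called with opposite pairs, 1.99 in run 2 and -4.95 in run 3. All 14 tested genes of the interferon-γ, GBP and immunity-related GTPase list rose (median 2.64; DESeq2 called 12 and edgeR without the run as a block 9), with a larger change in run 2 in 14 of 14. Igtp and Irgm1, GTPases that act on vacuoles of intracellular pathogens, rose by 3.001 and 2.926. GBPs, immunity-related GTPases, Ifit3 with Ifit3b and the H2-Q genes have near copies in the genome, and the share of reads that a copy took is uncertain.

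All 17 MHC class I presentation genes rose, with a median of 1.81. DESeq2 called 13, and edgeR without the run as a block 3. B2m, the light chain of class I, had 2741 and 1313 CPM, against 1085 and 855 CPM, a change of 1.06 (SE 0.14, adjusted p = 1.26e-11). Psmb8, an immunoproteasome subunit, had 764 and 305 CPM, against 136 and 117 CPM. H2-K1 and H2-D1, heavy chains, rose by 1.30 and 1.56. The H2-T23 call rested on run 2, with a run 3 pair of -0.07. MHC class II genes, which professional antigen-presenting cells carry, did not follow: 0 of 6 rose, and H2-Aa and H2-Eb1 fell at under 5 CPM in every profile (-2.05 and -2.65). These 2 falls were lost, with the opposite sign, when only cells with Müller marker sums of at least 10 were used (2.56 and 0.845, neither called).

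**Figure D4:**
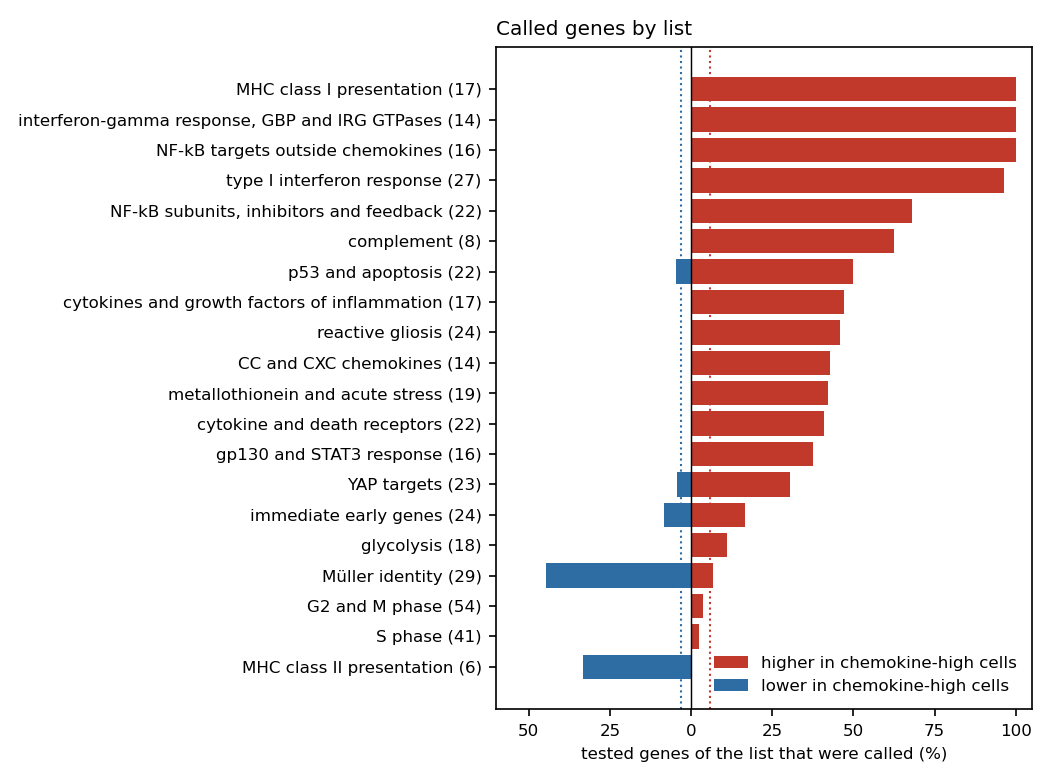
Share (percent) of the tested genes of each list that were higher (red, right) or lower (blue, left) in chemokine-high than in chemokine-low cells, with the number tested in brackets. Dotted lines mark the shares over all genes, 5.72% and 3.19%; the MHC class I, interferon-γ and NF-κB target lists reach all of their tested genes and Müller identity has the longest bar to the left.

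**Figure D5:**
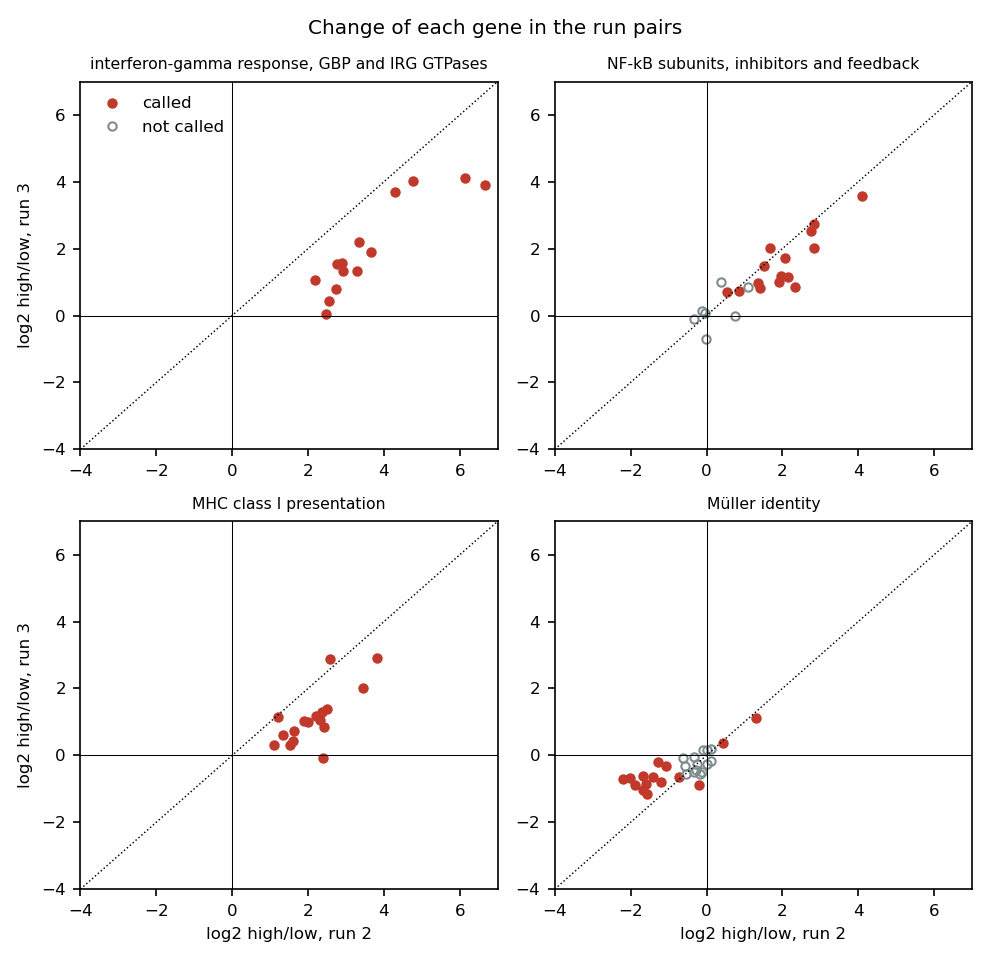
Log2 change between chemokine-high and chemokine-low cells in run 2 (horizontal) and run 3 (vertical) for the genes of 4 lists, called genes filled. The 14 interferon-γ list genes all lie under the dotted line of equal change, whereas Müller identity genes gather below 0 in both runs.

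The lists differed in which run pair had the higher median change, with the sign counted. The median pair changes in runs 2 and 3 were 3.10 and 1.55 for the interferon-γ list, 2.20 and 1.01 for MHC class I, 2.15 and 1.47 for type I interferon genes, and 1.46 and 0.99 for NF-κB subunits and feedback genes. Run 3 had the higher median for immediate early genes (-0.50 and 0.46, of opposite sign), YAP targets (0.26 and 0.54) and metallothionein and stress genes (0.46 and 0.57). It was also the higher one for Müller identity (-0.54 and -0.50) and over all tested genes (-0.20 and -0.11). The p53 list was alike (0.80 in both). Over all genes 6934 of 13704 had the higher change in run 2, again with the sign counted. Each run gives 1 pair, so this difference has no test, and the run 3 cells also had the lower Ccl2.

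Of 8 complement genes 5 rose, with C3, the central component, at 22.7 and 16.5 CPM, against 1.77 and 1.88 CPM, and Serping1, the C1 inhibitor, up by 0.83. C1s1 and C1rb were called with run 3 pairs of -4.16 and -1.33. Of 16 genes of the gp130 and STAT3 response 6 rose. Timp1, a metalloproteinase inhibitor, had 1696 and 208 CPM, against 184 and 97.5 CPM, a change of 2.33. Pim1 rose by 1.34. Socs3, the feedback inhibitor of STAT3, had 350 and 316 CPM, against 365 and 543 CPM, a change of -0.32 that did not pass (adjusted p = 0.375).

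Müller identity genes fell in 13 of 29 and rose in 2, with a median of -0.36 beside -0.04 over all tested genes. DESeq2 called 8 lower and 1 higher, and edgeR without the run as a block 4 lower and 0 higher. Rlbp1 had 709 and 897 CPM, against 1635 and 1572 CPM, a change of -0.93 (SE 0.15, adjusted p = 2.45e-08). Apoe, the lipid carrier, had 3431 and 6161 CPM, against 7136 and 7700 CPM, a change of -0.62 (adjusted p = 4.28e-07), most of it in run 2. Gpr37, a receptor for prosaposin, had 141 and 416 CPM, against 651 and 676 CPM, and Clu fell by 0.47. Named after their values were seen, the transcription factors Rax (136 and 201 CPM, against 435 and 413 CPM) and Hes1 (98.4 and 335 CPM, against 401 and 533 CPM) fell as well. Glul, the glutamine synthetase, had 1437 and 1192 CPM, against 1796 and 1688 CPM, which did not pass (adjusted p = 0.134). Cp, the ferroxidase ceruloplasmin, rose by 1.28 and Pdpn by 0.47.

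The largest falls over all genes were Hes5, Thrsp, Fam159b, Mfap2, Acsl3, Gpr37, Npy and Utp14b, with log2 changes between -3.23 and -1.38. Hes5, a Notch target, had 6.50 and 21.3 CPM, against 86.2 and 115 CPM (SE 0.32, adjusted p = 1.05e-21). Acsl3, a fatty acid activating enzyme, had 234 and 482 CPM, against 1106 and 778 CPM. In both genes the log2 change was smaller in size in run 3, at -3.71 and -2.43 in runs 2 and 3 for Hes5 and -2.24 and -0.69 for Acsl3.

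Reactive gliosis genes rose in 11 of 24 with 0 falling, yet Gfap, the intermediate filament raised in gliosis, had 636 and 453 CPM, against 726 and 634 CPM, and did not pass (adjusted p = 0.467). Vim had 3775 and 2635 CPM, against 2810 and 2510 CPM (adjusted p = 0.076). S100a6 and S100a10 rose by 0.42 and 0.67. Metallothionein and acute stress genes rose in 8 of 19. Mt1, a metal-binding protein, reached 28880 and 6751 CPM, against 6357 and 3442 CPM, a change of 1.66 (SE 0.10, adjusted p = 2.19e-62), and Mt2 reached 18310 and 3962 CPM, against 3381 and 1572 CPM. Together these 2 genes made up more of the run 2 profile than the 6 markers. Hspb1 was called with opposite pairs, -0.64 and 2.35.

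Of 22 genes of the p53 and apoptosis list 11 rose and 1, Sesn1, fell. Cdkn1a, the cell cycle inhibitor p21, had 116 and 177 CPM, against 42.0 and 67.7 CPM, a change of 1.51 (SE 0.24, adjusted p = 1.95e-08), and Bax rose by 0.64. Named after its values were seen, Mlkl, the executor of necroptosis, had 34.7 and 9.45 CPM, against 1.94 and 1.05 CPM. Immediate early genes split, with 4 of 24 rising, among them Fosl1 (2.05), and Ier2 and Btg2 falling by 0.69 and 0.67. Of 23 YAP targets 7 rose, among them F3 (1.08) and Axl (0.75), with a median of 0.50 over the list, and 1, Ctgf, fell by 1.24, at 9.68 and 9.45 CPM, against 27.0 and 17.2 CPM. DESeq2 called 1 YAP target higher and 0 lower. Cyr61, a classical target, had 924 and 2092 CPM, against 1348 and 1903 CPM (adjusted p = 0.714), and Yap1 had 33.7 and 52.0 CPM, against 29.4 and 28.4 CPM (adjusted p = 0.278). Of the cell cycle lists 1 of 41 S phase genes and 2 of 54 G2/M genes rose and 0 fell, near or under the 5.72% of all genes. Glycolysis genes rose in 2 of 18.

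Chemokine-high cells without Igfbp2 were then set against chemokine-high cells with Igfbp2 of runs 2 and 3 (354 and 98 cells). Ccl2 itself was alike in both, at 4795 and 2543 CPM without Igfbp2, against 4574 and 2426 CPM with it. Gbp2 (1964 and 479 CPM, against 549 and 109 CPM), Fas (406 and 144 CPM, against 56.7 and 23.3 CPM), Ccl7 (1834 and 541 CPM, against 864 and 264 CPM) and Ccl5 (388 and 250 CPM, against 74.4 and 33.4 CPM) were higher without Igfbp2, whereas Cxcl10 was at 2196 and 687 CPM, against 2190 and 433 CPM. Of 11393 genes tested, 1147 (10.1%) were higher and 1408 (12.4%) lower without Igfbp2, 2555 (22.4%) in all. DESeq2 called 470 and 593, and edgeR without the run as a block 194 and 488.

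Cell cycle genes made the clearest difference: 39 of 41 S phase and 50 of 54 G2/M genes were lower without Igfbp2. Their summed levels in cells without Igfbp2 were 489 and 451 CPM (S) and 1476 and 1263 CPM (G2/M), against 3678 and 2840 CPM and 6061 and 6070 CPM. Rrm2, a subunit of ribonucleotide reductase, had 26.0 and 21.3 CPM, against 523 and 379 CPM, a change of -4.21 (SE 0.22, adjusted p = 5.26e-09). YAP targets were lower in 14 of 23 and higher in 2 (7 and 0 without the run as a block), with Axl at 155 and 128 CPM, against 359 and 356 CPM. Chemokine-low cells of runs 2 and 3 had gaps in the same direction. Their S phase sums were 455 and 490 CPM without Igfbp2, against 3401 and 3151 CPM with it. Their G2/M sums were 1407 and 1354 CPM, against 9410 and 9312 CPM, and Axl had 91.7 and 87.5 CPM, against 339 and 359.5 CPM.

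Müller identity genes were higher without Igfbp2 in 22 of 29 and lower in 3 (11 and 0 without the run as a block). Among the higher were Rlbp1 (709 and 897 CPM, against 253 and 226 CPM) and Glul (1437 and 1192 CPM, against 523 and 349 CPM). Both gaps were also present in chemokine-low cells of runs 2 and 3. Rlbp1 had 1635 and 1572 CPM there without Igfbp2, against 476 and 443 CPM with it. Glul had 1796 and 1688 CPM, against 511 and 442 CPM. Between the chemokine-high classes, type I interferon genes were higher without Igfbp2 in 17 of 28 and interferon-γ list genes in 11 of 16, with 0 lower in either. These counts were 13 and 6 with DESeq2, 1 and 0 without the run as a block, and 11 of 26 and 4 of 14 after thinning to 3500 UMIs. Examples were Ifit1 (1131 and 588 CPM, against 349 and 192 CPM) and Gbp3 (412 and 118 CPM, against 180 and 38.2 CPM). In chemokine-low cells of runs 2 and 3, Ifit1 had 153.3 and 131.8 CPM without Igfbp2, against 34.82 and 26.9 CPM with it. Gbp3 had 55.6 and 40.04 CPM there, against 19.48 and 18.03 CPM, so both gaps were also present at low Ccl2. Ifit2 went the other way there, with 10.27 and 9.104 CPM, against 16.41 and 19.33 CPM, and so did Iigp1 in run 3. The lists were not tested between chemokine-low cells. In the chemokine-high cells, immediate early genes were higher without Igfbp2 in 16 of 24, and in 0 of 24 without the run as a block. Among cytokines, Csf1 went the other way, with 40.0 and 28.3 CPM without Igfbp2, against 258 and 245 CPM with it (-2.75, SE 0.23, adjusted p = 2.04e-07), and Cxcl12 had 90.8 and 54.3 CPM, against 276 and 301 CPM. Nupr1, a stress-induced nuclear protein, had 4848 and 3521 CPM, against 452 and 565 CPM. Csf1, Cxcl12 and Nupr1 had gaps in the same direction in chemokine-low cells of runs 2 and 3. Csf1 had 13.8 and 11.9 CPM there without Igfbp2, against 171 and 162 CPM with it. Cxcl12 had 45.6 and 36.3 CPM, against 191 and 182 CPM, and Nupr1 2446 and 2378 CPM, against 343 and 274 CPM. Mural genes of the chemokine-high cells were lower without Igfbp2 in both runs: the 8 pericyte and smooth muscle markers summed to 25.9 and 37.8 CPM, against 187 and 744 CPM, and Rgs5 had 2.60 and 0 CPM, against 78.7 and 649 CPM (-5.60, SE 0.42, adjusted p = 8.4e-08). The astrocyte gene Pax2 was at 0 and 0 CPM, against 4.64 and 56.7 CPM. Gfap differed in opposite directions in the runs, with 636 and 453 CPM without Igfbp2, against 190 and 1682 CPM, and was not called (adjusted p = 0.972). The 8 astrocyte markers summed to 618 and 605 CPM without Igfbp2, against 263 and 1484 CPM with it. Their part in the comparison was not tested.

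Whether the step between chemokine-low and chemokine-high cells was itself different without Igfbp2 was tested as an interaction over 14056 genes. edgeR called 0 genes (0%), with 1835 (13.1%) at an unadjusted p under 0.05, and 13 with other size factors or 26 without the low-count filter. For Gbp4 the difference of the log2 changes was 0.62 (SE 1.05), for Cxcl2 0.26 (SE 0.26) and for Lcn2 -0.43 (SE 1.24), each without minus with Igfbp2. For Lcn2 the 2 runs gave 2.45 and -2.84. A test on 2 runs that calls nothing does not show that the steps were alike.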

How the data were processed

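Single-cell RNA of tdTomato+ retina cells was measured in 3 runs. The authors deposited UMI counts per gene and cell from 10X 3' v2 libraries. The submitters' processing notes list mm10, Cell Ranger (version not given in the sources used here) and Seurat 2.3.4, with no role stated for each. The second table the authors deposited holds natural log values. It equalled ln(1 + 10000 × count / total) within 7.37e-07, and its 13511 cells served as an alternative. All results came from the counts.

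Quality limits were 500 detected genes or more and a mitochondrial share of 20% or less (24672 of 24695; lowest total 3538 UMIs; 94844636, 122871274 and 96947668 UMIs in runs 1, 2 and 3). Doublets were not called. Levels are UMIs per 10000 in cells and CPM in summed profiles. The chemokine-high class, the gene lists and the tests were chosen with earlier results of these data known. UMIs were summed per run and class with at least 20 cells, filtered (filterByExpr), scaled (TMM) and compared in R 4.3.3 by the quasi-likelihood test of edgeR 4.0.16, with the run as a block because both classes of a run come from 1 library. The 5 genes that set the classes and the 5 other markers entered the scaling but not the tests. Log2 changes are chemokine-high without Igfbp2 over the other class, and each SE was derived as the size of that change over the root of the F statistic. A value for 1 run pair is a log2 ratio of CPM with a prior count of 2. DESeq2 1.42.0 was the other tool, and 20 gene lists were used. Named genes were the 12 largest rises and 8 largest falls among called genes with a log2 change of at least 1 either way, a mean level of 50 CPM or more and pairs of the same sign, leaving out class-setting, ribosomal, mitochondrial and unnamed predicted genes, then the called genes of each list with the highest level (4 at most) and 21 fixed genes. The other genes named are said to be so, or are named because their pairs disagreed or they complete a count. The fitting was tested on simulated data. Alternatives tried were DESeq2, RLE size factors, a fit with no run block, a fit with no low-count filter, other Ccl2 limits, the cells of the log table, a Müller marker limit, thinning to 3500 UMIs and each run left out. Other tools were Python 3.11.15, numpy 2.4.6, scipy 1.17.1, pandas 2.3.3 and matplotlib 3.10.9.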

Additional observations from a re-analysis of the deposited data

How the results depend on the processing

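Of the genes called between chemokine-high and chemokine-low cells (1221, 784 higher and 437 lower), DESeq2 called 339 (289 and 50), edgeR without the replicate block 376 (291 and 85) and cells thinned to 3500 UMIs 609 (431 and 178). In the cells of the table of log values 758 genes were lower. Between chemokine-high cells without and with Igfbp2 (2555, 1147 higher and 1408 lower), the counts were 1063 (470 and 593) with DESeq2, 682 (194 and 488) without the replicate block, 1168 (517 and 651) after thinning and 4586 (2290 and 2296) with Ccl2 of at least 5. The interaction gave 0 genes, 13 with RLE size factors and 26 without the low-count filter. The other settings kept the counts within 1.5 times, among them a minimum of 5 cells, which adds run 1 and was chosen after seeing the data (1087 genes). Of 97 named genes in the comparison with chemokine-low cells, 29 were no longer called with DESeq2, 59 without the replicate block and 15 after thinning. H2-Aa turned to 1.83 in the cells of the table of log values and 2.56 in Müller-marker cells, and H2-Eb1 to 0.845 there. Without replicate 2, which leaves the run 3 pair and no test, C1s1 was -4.16, against 2.28 without replicate 3. In the comparison with Igfbp2 cells the values without replicate 2 and without replicate 3 were -0.196 and 1.35 for Il4ra, -0.77 and 2.74 for Il13ra1, -0.079 and 1.78 for Timp1, and -0.0158 and 1.61 for Mt2. Without replicate 2 43 of 97 and 37 of 95 named genes moved by more than 1 SD of the run pairs. The mean share was between 0.325% (without run 2) and 3.20% (without run 1). The cause was not tested. Cells with no cell cycle UMI could not be used, since 0 chemokine-high cells lacked one. Run 1, with 5 cells, and the 48 cells of run 3 limit what could be detected.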
